A study of Homo sapiens with 6 samples.

Results

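The plasminogen system and the matrix metalloproteinases were followed through 9 named genes out of 20263 listed in the count table of U118, an established human line derived from a malignant glioma. All 9 were found by matching Ensembl IDs to gene symbols: the proteases PLAU, PLAT, MMP1, MMP2, MMP14 and MMP16, the receptor PLAUR, and the inhibitors TIMP1 and TIMP2. RNA was sequenced at day 2 in 6 libraries: a wild-type library (WT), a library from a control siRNA transfection (siNC), and 4 libraries in which the kinase gene RIPK2 was the siRNA target (siRIPK2_1 to siRIPK2_4). What separates the 4 knockdown libraries from each other (siRNA sequence, culture or experiment date) is not given in the sources used here. Each control is also a single library. P-values against siNC, against WT and for siNC against WT therefore rest on the spread among the 4 knockdown libraries. That spread is assumed to hold for the controls, and it may be technical. Only in the comparison against both controls does the difference between WT and siNC enter the spread. Library totals ran from 33540619 to 45309423 counts, and RIPK2 itself was at 56.8 CPM (counts scaled to a common library size, with TMM factors) in WT, 43.4 CPM in siNC and 3.86 to 11.9 CPM after knockdown. Even for this target gene the log2 fold change of -2.72 against siNC had an adjusted p of 0.972 in edgeR (unadjusted p of 0.000946).

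Urokinase, the product of PLAU, and tissue plasminogen activator, the product of PLAT, cut plasminogen into plasmin, a serine protease that degrades fibrin and can activate latent matrix metalloproteinases. Urokinase is held at the cell surface by its receptor, encoded by PLAUR. The membrane-anchored protease encoded by MMP14 uses the inhibitor encoded by TIMP2 as a bridge to capture and activate the gelatinase encoded by MMP2, while excess inhibitor blocks the same reaction. In glioma these proteases are known for opening the matrix ahead of invading cells.

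Promoter windows from 250 bases before to 50 bases after the start site were matched in RefSeq (GRCh38.p14) for 4 members, PLAU, PLAUR, MMP14 and TIMP1, with 2 start sites for PLAU. The windows of the receptor gene and of its ligand's second start site are shown as a receptor and ligand pair. Both genes had their highest level in siNC, as TIMP1 did. Capitals mark matches to the AP-1 motif TGANTCA in PLAUR (chr19:43670120-43670419, minus strand) and to the GC box GGGCGG in PLAU (chr10:73910882-73911181, plus strand), both searched on both strands and written 5′ to 3′.
PLAUR: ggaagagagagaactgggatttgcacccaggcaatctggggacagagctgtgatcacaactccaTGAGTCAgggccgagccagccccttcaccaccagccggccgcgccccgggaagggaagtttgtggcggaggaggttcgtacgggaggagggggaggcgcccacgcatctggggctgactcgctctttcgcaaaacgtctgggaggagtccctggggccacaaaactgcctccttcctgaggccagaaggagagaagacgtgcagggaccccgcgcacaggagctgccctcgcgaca
PLAU: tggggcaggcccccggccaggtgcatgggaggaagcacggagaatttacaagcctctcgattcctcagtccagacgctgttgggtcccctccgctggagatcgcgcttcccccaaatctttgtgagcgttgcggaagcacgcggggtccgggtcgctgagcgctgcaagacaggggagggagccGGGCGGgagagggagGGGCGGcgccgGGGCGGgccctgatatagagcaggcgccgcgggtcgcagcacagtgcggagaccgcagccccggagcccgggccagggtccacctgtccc
The AP-1 match in PLAUR began at position -186 from the start site and read TGAGTCA. The motif was in 7.71% of 35116 windows of the same length. None of the other 4 windows held it. GC boxes began at -66, -51 and -40 in the PLAU window, at -66 in MMP14 and, on the reverse strand, at -135 and -45 in TIMP1, and 45.0% of all windows held one. The NF-kB consensus, found in 11.3% of windows, was in none of the 5. A match describes these letters only, and no match says nothing of binding elsewhere.

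Per base of exon, MMP14 and MMP2 were the leading members. Levels per length, as TPM (transcript levels scaled by length to the same total in each library) over the exon union of GENCODE 29, averaged 1332 ± 265 TPM for MMP14 and 890.3 ± 183 TPM for MMP2 (SD over the 6 libraries, which mix conditions). TIMP1 followed at 685 ± 94.1 TPM, PLAU at 397 ± 190.5 TPM and TIMP2 at 239.9 ± 120.3 TPM. PLAUR averaged 61.8 ± 12.4 TPM. MMP1, MMP16 and PLAT closed the list at 17.9 ± 6.66, 17.04 ± 6.94 and 13.5 ± 4.45 TPM. With the longest transcript as the length, PLAUR came to 126 TPM and PLAT to 19.1 TPM, both further from the first value than their SD over the libraries. PLAUR kept its place in the order, while the order of the last 3 members changed. Each pair of neighbours in the order overlapped in range over the 6 libraries, except PLAUR and MMP1.

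PLAU (ENSG00000122861, chromosome 10, 73909177 to 73917497, plus strand, GRCh38) was the plasminogen activator with the most transcript. It stood at 257 CPM in WT and 587 CPM in siNC, then at 438, 209.9, 210.1 and 191 CPM across siRIPK2_1 to siRIPK2_4. The control siRNA library was the highest of the 6. One knockdown library, siRIPK2_1, lay between the controls, and the other 3 lay below WT. Against siNC the knockdown level was lower by 1.16 on the log2 scale (log2 fold change -1.16, SE 0.449, 95% interval -2.20 to -0.12, unadjusted p of 0.0328 and adjusted p of 1.00 in edgeR). Over the alternatives it ran from -1.54 (without siRIPK2_1) to -1.04, with unadjusted p from 0.000724 to 0.0637 and no adjusted p under 0.657. Against WT the log2 fold change was 0.03 (interval -1.10 to 1.15), and -0.34 without siRIPK2_1. Against both controls it was -0.69, and 0.03 without the siNC library. Exons of C10orf55, on the other strand, cover 31.1% of the exon bases of PLAU. That gene had 69 to 112 counts per library against 6934 to 18838 for PLAU.

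PLAUR (ENSG00000011422, chromosome 19, 43646095 to 43670547, minus strand) encodes the urokinase receptor. Its level was 69.1 CPM in WT, 102 CPM in siNC, and 51.9, 63.1, 69.3 and 89.1 CPM in the knockdown libraries in order. As for its ligand, siNC was the highest library, but siRIPK2_1, the knockdown library with the most PLAU, had the least PLAUR. The log2 fold change was -0.57 against siNC (interval -1.36 to 0.21, unadjusted p of 0.131 in edgeR) and -0.02 against WT (interval -0.83 to 0.80). The ratio of PLAU to PLAUR per length was 5.62 in WT and 8.73 in siNC. It reached 12.7 in siRIPK2_1 and was 5.02, 4.58 and 3.23 in the other 3. The size of this ratio depends on the length used. With the longest transcript as the length, PLAU and PLAUR averaged 326 and 126 TPM, beside 397 and 61.8 TPM over the exon union.

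PLAT (ENSG00000104368, chromosome 8, 42175233 to 42207724, minus strand) encodes tissue plasminogen activator. Both controls were close, at 22.5 CPM in WT and 22.4 CPM in siNC. The knockdown libraries had 38.0, 19.9, 22.01 and 17.7 CPM, so 1 library lay above the controls and 3 below. The log2 fold change was 0.12 against siNC (interval -0.96 to 1.20) and became -0.19 without siRIPK2_1. PLAU exceeded PLAT per length in every library, by 58.8 times in siNC and by 21.4 to 25.8 times in the other 5. The size of this ratio also depends on the length: with the longest transcript PLAU and PLAT averaged 326 and 19.1 TPM.

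MMP2 (ENSG00000087245, chromosome 16, 55389700 to 55506691, plus strand), the gelatinase gene, was lower in all 4 knockdown libraries than in both controls. It was at 1311 CPM in WT and 1575 CPM in siNC, then at 941, 1217, 1172 and 834 CPM from siRIPK2_1 to siRIPK2_4. The groups did not overlap, although siRIPK2_2 came close to WT. Of 13901 genes, 5.45% were below both controls in every knockdown library. The log2 fold change was -0.60 against siNC (SE 0.287, interval -1.26 to 0.07, unadjusted p of 0.0718 in edgeR), -0.33 against WT (interval -1.01 to 0.34) and -0.47 against both controls (interval -0.96 to 0.02).

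TIMP2 (ENSG00000035862, chromosome 17, 78852977 to 78925387, minus strand), which inhibits MMP2 and is also needed for its activation, was the most variable member. It stood at 532 CPM in WT and 554 CPM in siNC, then at 415, 152, 113 and 417 CPM in the knockdown libraries in order. All 4 were below both controls, as for 5.45% of 13901 genes. They lay in pairs: siRIPK2_1 and siRIPK2_4 kept 78.0% and 78.4% of the WT level, and siRIPK2_2 and siRIPK2_3 28.7% and 21.3%. Counts behind these values ranged from 5115 to 19162, so counting error is small beside the gap. Against siNC the log2 fold change was -1.01 with a wide interval (-2.54 to 0.52, unadjusted p of 0.165 in edgeR), and it was -0.95 against WT (-2.49 to 0.58). Exons of CEP295NL, on the same strand, cover 3.52% of the exon bases of TIMP2, and that gene had 5 to 17 counts per library. Over the 4 knockdown libraries TIMP2 spanned 3.68-fold. Of 9463 genes with a mean of at least 10 CPM, 404 (4.27%) spanned as much. Residual RIPK2 was 11.9 and 6.27 CPM in siRIPK2_2 and siRIPK2_3 and 3.86 and 4.32 CPM in siRIPK2_1 and siRIPK2_4. Its part in the TIMP2 levels was not tested.

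MMP14 (ENSG00000157227, chromosome 14, 22836557 to 22849027, plus strand), the membrane-type protease of the same complex, did not follow TIMP2. It was at 1789 CPM in WT and 1539 CPM in siNC, then at 1298, 1704, 1172 and 2014 CPM after knockdown, on both sides of the controls. Its log2 fold change was 0.01 against siNC (interval -0.79 to 0.80) and -0.21 against WT (interval -0.99 to 0.57). Per length, the TIMP2 to MMP14 ratio was 0.236 in WT, 0.285 in siNC and 0.253 in siRIPK2_1. It was 0.164 in siRIPK2_4 and only 0.0709 and 0.0766 in siRIPK2_2 and siRIPK2_3. The TIMP2 to MMP2 ratio set the same 2 libraries apart, at 0.11 and 0.0847 against 0.308 to 0.438 in the other 4. These are ratios of transcripts and not of protein, and their size depends on the length used. With the longest transcript MMP14, MMP2 and TIMP2 averaged 1177, 867 and 274 TPM.

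**Figure D1:**
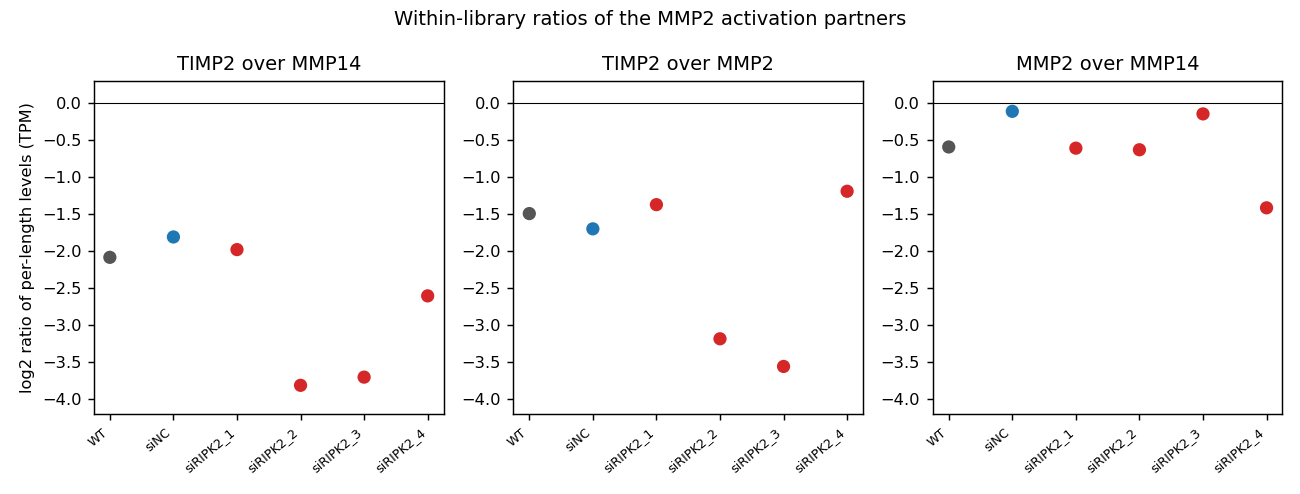
Each point is 1 library (grey WT, blue siNC, red siRIPK2), and the y axis is the log2 ratio of per-length levels. The TIMP2 to MMP14 ratio is -3.82 and -3.71 in siRIPK2_2 and siRIPK2_3 and between -2.61 and -1.81 in the other 4, while the MMP2 to MMP14 ratio does not set those 2 libraries apart.

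TIMP1 (ENSG00000102265, chromosome X, 47582313 to 47586789, plus strand), a secreted inhibitor of most metalloproteinases, varied least. Its levels were 289.8 CPM in WT, 344 CPM in siNC, and 240.2, 313, 238 and 268 CPM after knockdown. All knockdown libraries were under siNC, and 3 of 4 were under WT. Its log2 fold change was -0.38 against siNC (interval -1.03 to 0.28) and -0.13 against WT (interval -0.79 to 0.53). Per length the TIMP1 to TIMP2 ratio was 1.99 in WT, 2.27 in siNC, 2.12 in siRIPK2_1 and 2.35 in siRIPK2_4, against 7.50 and 7.69 in siRIPK2_2 and siRIPK2_3. The size of this ratio depends on the length too: with the longest transcript TIMP1 and TIMP2 averaged 713 and 274 TPM.

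MMP16 (ENSG00000156103, chromosome 8, 88032009 to 88328025, minus strand), a membrane-type relative of MMP14, was the member with the clearest higher level against siNC. It was at 48.4 CPM in WT and 28.7 CPM in siNC, then at 88.2, 53.6, 40.8 and 67.7 CPM in siRIPK2_1 to siRIPK2_4. Every knockdown library exceeded siNC, but siRIPK2_3 was below WT. Here siNC was the lowest of the 6. The log2 fold change was 1.12 against siNC (SE 0.466, interval 0.04 to 2.20, unadjusted p of 0.0435 and adjusted p of 1.00 in edgeR) and 0.37 against WT (interval -0.65 to 1.39). Over the alternatives against siNC it went from 0.90 to 1.28, with unadjusted p from 0.0165 to 0.0697 and no adjusted p under 0.559.

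MMP1 (ENSG00000196611, chromosome 11, 102789920 to 102798160, minus strand), the interstitial collagenase gene, had the fewest counts of the members, between 247 and 508 per library. It was at 14.1 CPM in WT, 7.70 CPM in siNC, and 7.29, 6.997, 6.62 and 13.9 CPM after knockdown. WT and siRIPK2_4 were about equal, and the other 4 libraries were close to each other. The log2 fold change was 0.18 against siNC (interval -1.01 to 1.36) and -0.70 against WT (interval -1.81 to 0.42). Without siRIPK2_4 these became -0.14 and -1.02, the latter with an unadjusted p of 0.0351 and an adjusted p of 1.00 in edgeR.

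**Figure D2:**
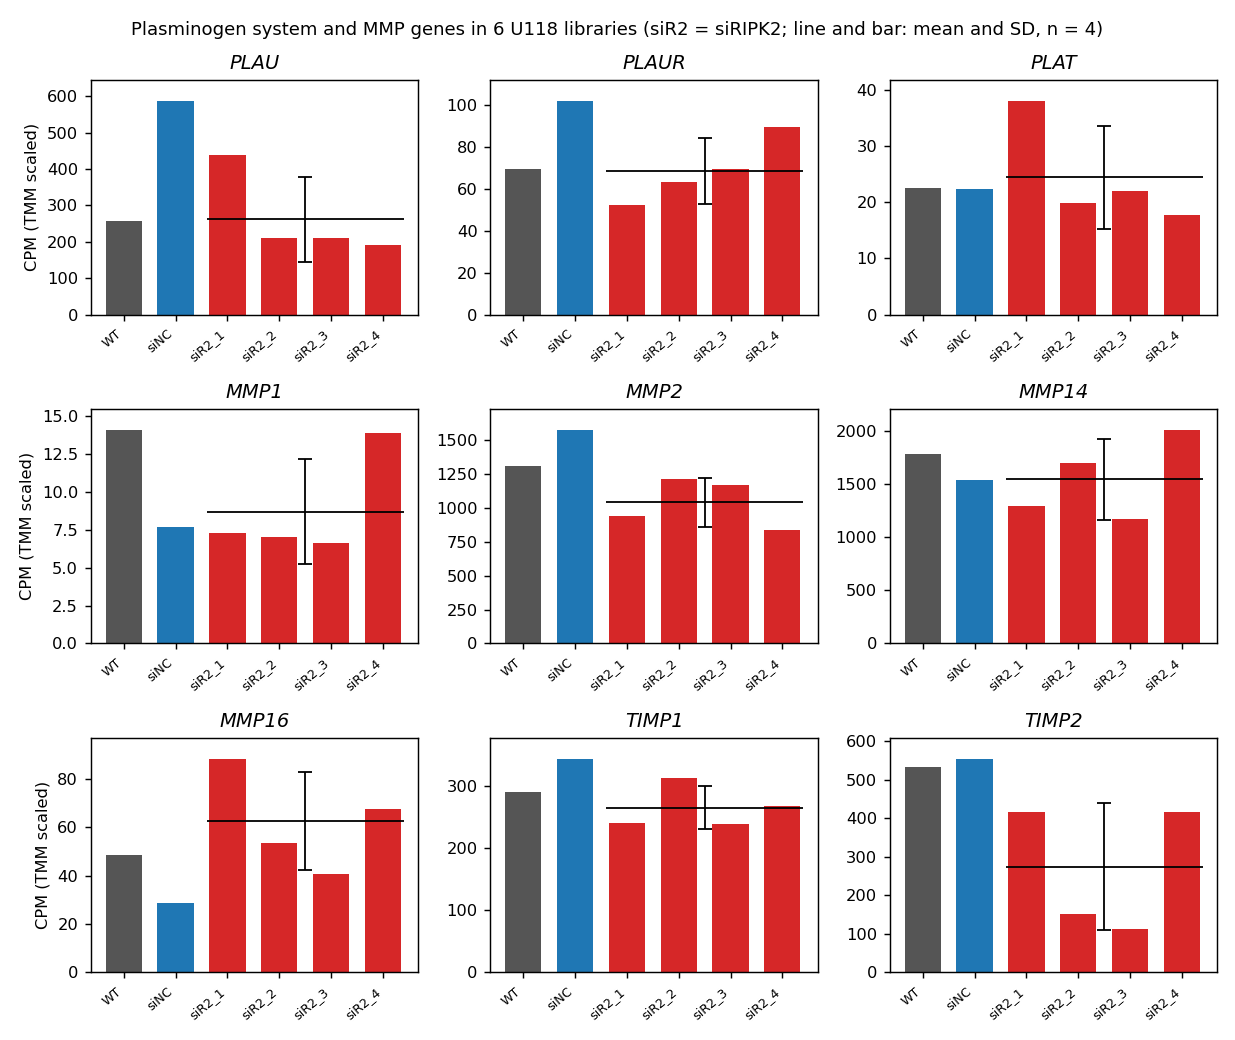
Bars give each member's level in CPM in every library (grey WT, blue siNC, red siRIPK2), with the knockdown mean and SD (n = 4) as a line and error bar. TIMP2 splits the knockdown libraries into a high and a low pair, and PLAU is highest in siNC at 587 CPM. MMP2 is below both controls in all 4 knockdown libraries, as are 5.45% of 13901 genes.

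Across the 9 members, 0 passed the adjusted threshold of 0.05 in edgeR in any comparison. The background was equally empty: 0% of 14306 genes passed against siNC, against WT or for siNC against WT, and 0% of 13901 against both controls. At an unadjusted p under 0.05 in edgeR, 1 member was lower (PLAU) and 1 higher (MMP16) against siNC, where 1.21% of all genes were lower and 3.56% higher. No member reached that level against WT (1.08% of genes), for siNC against WT (2.73%) or against both controls (2.55%). DESeq2 and limma-voom called 0 members too. Among all genes DESeq2 called 0.528% against siNC, 0.0629% against WT, 0.0769% for siNC against WT and 0.0841% against both controls, and limma-voom called 0%, 0.00699%, 0% and 0%. The comparisons share control and knockdown libraries and are not independent.

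The members' median log2 fold change was -0.38 against siNC, beside 0.02 for all genes, with 4 members higher and 5 lower. It was -0.13 against WT (3 higher, 6 lower), 0.06 for siNC against WT (5 higher, 4 lower) and -0.32 against both controls (2 higher, 7 lower), beside all-gene medians of 0.01, -0.0017 and 0.01. The last median was -0.12 without the siNC library. All knockdown libraries were below both controls for 2 of 9 members, MMP2 and TIMP2, as for 5.45% of genes, and above both for 0 of 9 (4.95% of genes). The exact permutation test over the 15 ways of choosing 2 of 6 libraries gave a 2-sided p of 0.133 for each of these 2 members on log2(CPM + 1), where the smallest possible is 0.0667. For the other 7 it ran from 0.200 (MMP16 and TIMP1) to 1.00 (PLAT). The 2 were singled out by the same separation, so their p is a description. The siNC library was the highest of the 6 for 5 of 9 members (PLAU, PLAUR, MMP2, TIMP1 and TIMP2) and the lowest for MMP16, against 15.2% and 18.0% of all genes.

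**Figure D3:**
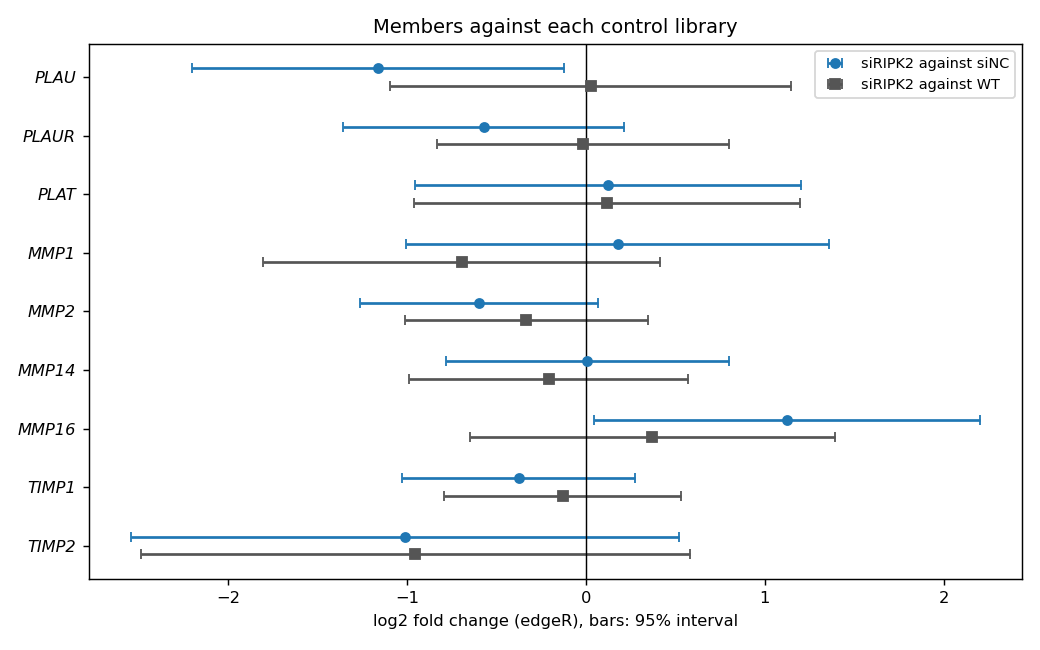
Points are log2 fold changes of the 4 siRIPK2 libraries against siNC (blue circles) and against WT (grey squares), with 95% intervals from edgeR. The intervals of PLAU (-2.20 to -0.12) and MMP16 (0.04 to 2.20) against siNC leave out 0, while every interval against WT includes it.

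Among the other partners of plasminogen activation, 11 of 16 were tested against siNC and 10 of those averaged at least 1 CPM over the 6 libraries, a limit set after the values were seen. Of these 10, 3 were higher and 7 lower, with a median log2 fold change of -0.37 and 0 called in edgeR. PLG, the gene of plasminogen itself, had at most 0.062 CPM, at or under the floor of 3 counts in every library. SERPINE2, encoding an inhibitor of urokinase, ranged from 1075 to 1709 CPM after knockdown around control values of 1507 (WT) and 1224 (siNC).

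Among the cell-surface plasminogen receptors, 1 library stood far below the rest for ANXA2. ANXA2, whose product binds plasminogen with that of S100A10, was at 2611 CPM in WT and 3584 CPM in siNC, then at 1964, 2482 and 2314 CPM in siRIPK2_2 to siRIPK2_4. In siRIPK2_1 it was at 361 CPM, 13.8% of WT and 10.1% of siNC. ANXA2 has processed copies elsewhere in the genome, so its counts are uncertain to that extent. S100A10 stood at 234 CPM in WT, 629 CPM in siNC, and 143, 357, 338 and 176 CPM after knockdown (log2 fold change -1.31 against siNC, unadjusted p of 0.0269 in edgeR). PLGRKT, a plasminogen receptor gene, was lower in all 4 knockdown libraries, at 9.23, 8.67, 6.93 and 6.13 CPM, than in either control. WT had 13.5 CPM of it and siNC had 11.7 CPM. Of 13901 genes, 5.45% were likewise below both controls in every knockdown library. For PLGRKT the unadjusted p in edgeR was 0.154 against siNC and 0.0660 against WT. ENO1, a glycolytic enzyme gene whose product also binds plasminogen, had a log2 fold change of -0.67 against siNC (unadjusted p of 0.014 in edgeR) and -0.09 against WT. SERPINI1, the neuroserpin gene, had 0.98 against siNC, its lowest library at 5.86 CPM, and 0.34 against WT.

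The remaining inhibitors differed between single knockdown libraries. Of 8 listed inhibitors, activators and inducers, 6 averaged at least 1 CPM, of which 2 were higher and 4 lower against siNC (median -0.13, 0 called in edgeR). TIMP3, encoding a matrix-bound inhibitor, was at 1040.2 CPM in WT and 1174 CPM in siNC, then at 674, 1963, 674 and 868 CPM after knockdown. It was thus highest in siRIPK2_2, a library with low TIMP2. RECK, encoding a membrane-anchored inhibitor, was at 15.3 CPM in WT and 23.03 CPM in siNC, at 6.99 and 7.07 CPM in siRIPK2_1 and siRIPK2_2, and at 16.6 and 22.1 CPM in siRIPK2_3 and siRIPK2_4. BSG, the metalloproteinase inducer gene, stayed between 742 and 929 CPM. FURIN, encoding a convertase that activates membrane-type metalloproteinases, ranged from 188 to 341 CPM.

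**Figure D4:**
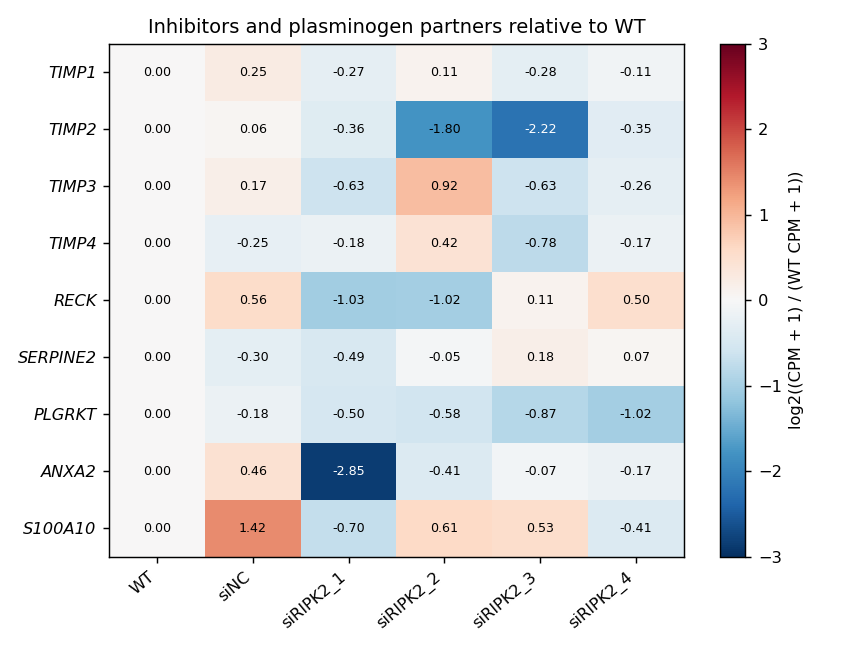
Cells give log2((CPM + 1) / (WT CPM + 1)) for 9 inhibitors and plasminogen partners in each library, red for above WT and blue for below. TIMP2 is -1.80 and -2.22 in siRIPK2_2 and siRIPK2_3, ANXA2 is -2.85 in siRIPK2_1, and PLGRKT is below 0 in every transfected library.

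Most other metalloproteinase genes were silent or near silent. Of 19 listed, 12 stayed under 1 CPM in every library, among them the second gelatinase gene MMP9 (at most 0.280 CPM), and MMP8, MMP13, MMP26 and MMP27 had no count at all. Of the 9 tested against siNC, 7 averaged at least 1 CPM. Among these, 2 were higher and 5 lower, with a median of -0.25 and 0 called in edgeR. MMP3, the stromelysin gene, was at 31.5 CPM in WT, 39.99 CPM in siNC and 32.7 to 46.0 CPM after knockdown. MMP15, another membrane-type gene, was at 36.7 and 31.9 CPM in WT and siNC and at 66.03, 42.6, 27.3 and 61.8 CPM in the knockdown libraries. MMP17 and MMP19 had log2 fold changes of -0.77 each against siNC, and of -0.25 and -0.39 against WT. For both, siNC was the highest library, at 11.7 CPM each, beside 8.19 and 8.96 CPM in WT.

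In the related protease families, 0 genes were called in edgeR. Of 14 ADAM and ADAMTS genes, 11 averaged at least 1 CPM, 6 of them higher and 5 lower against siNC. Their median was 0.14, and -0.08 over all 14, so its sign rests on the low genes. The shedding protease gene ADAM15 was at 176 CPM in WT and 100.4 CPM in siNC, beside 192 ± 18.3 CPM after knockdown (SD, n = 4), and ADAM10 at 115 and 69.6 CPM beside 107 ± 9.55 CPM. ADAM12 spanned 73.5 to 238 CPM over the knockdown libraries. Of 17 cathepsins, cystatins and other pericellular protease genes tested, 14 averaged at least 1 CPM, 4 of them higher and 10 lower (median -0.29). The lysosomal protease gene CTSS was at 2.77 CPM in WT, 5.89 CPM in siNC, and 2.52 ± 0.232 CPM after knockdown. BMP1, encoding a procollagen-processing protease, was at 69.3 CPM in WT and 115 CPM in siNC, beside 65.0 ± 9.10 CPM, and HTRA1, a secreted serine protease gene, at 279.5 and 301 CPM beside 198 ± 31.6 CPM. In ADAM15, ADAM10, CTSS and BMP1 the siNC library stood apart from WT and knockdown alike. For ADAM12 and HTRA1 siNC was also the highest library. All were named for a low unadjusted p against siNC, a choice that favours genes with an outlying siNC value. Over all genes siNC was the highest library for 15.2% and the lowest for 18.0%.

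The listed surface partners of the urokinase receptor, and factors of families known to act on protease promoters, all averaged at least 1 CPM. The lowest of the factors were FOSB, at 0.930 to 2.47 CPM, and FOS, at 2.39 to 5.37 CPM. Of 13 receptor partners, 4 were higher and 9 lower against siNC (median -0.21, 0 called in edgeR). ITGA3, an integrin gene, was at 2389 CPM in WT, 2903 CPM in siNC and 1298 to 2360 CPM after knockdown, ITGB3 at 12.3, 18.0 and 7.40 to 15.04 CPM, and the hyaluronan receptor gene CD44 at 475, 556 and 224 to 489 CPM. Of 15 AP-1 and ETS genes, 9 were higher and 6 lower (median 0.08, 0 called). FOSL1, an AP-1 subunit gene, was at 696 CPM in WT and 929 CPM in siNC, then at 873, 547, 850.4 and 659.9 CPM after knockdown. JUN, its partner, ranged from 539 to 832 CPM, and ETS1 from 113 to 284 CPM, lowest in siRIPK2_2. JUNB was at 81.02 CPM in WT, 154 CPM in siNC, and 89.2 ± 33.8 CPM after knockdown, while ETV1 and ELK4 had log2 fold changes of 0.55 and 0.36 against siNC and of 0.31 and -0.05 against WT.

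Genes with the pattern most like a member over the 6 libraries were taken by the smallest root mean square difference in centred log2(CPM + 1) among 9463 genes. For PLAU, whose own values varied by 0.61 about their mean, the nearest were CKB (difference 0.17), BNIP3 (0.17), CMTM3 (0.18) and CRABP2 (0.19). For MMP16 they were PCDHGC5 (0.12), SEMA3A (0.14), SASS6 (0.15) and CBLB (0.15), against a variation of 0.51. For MMP1 they were PRKD3, DPYD, FAP and PSIP1 (0.17 to 0.18, against 0.42). These are likenesses over 6 libraries that share 2 controls, given as a description. Among the members themselves the closest pair was MMP2 and TIMP1 (0.22, against variations of 0.30 and 0.19 of their own), and the most distant MMP16 and TIMP2 (1.00).

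The labels name the cells as brain astroblastoma cells, and this astrocytic origin was checked against markers. GFAP was at 0.531 to 1.09 CPM, S100B at no more than 0.049 CPM and AQP4 at 0 counts. In all, 5 of 12 astrocyte and glioma markers stayed under 1 CPM. VIM ranged from 3812 to 7572 CPM, CD44 from 224 to 556 CPM and GJA1 from 189 to 267 CPM. SOX9 was at 47.5 to 122 CPM and SLC1A3 at 3.52 to 13.1 CPM. The list goes both ways and does not settle the origin. NES, an intermediate filament gene of neural progenitors, was at 69.1 CPM in WT, 18.5 CPM in siNC and 19.5 to 73.1 CPM in the knockdown libraries. The summed marker level, mostly VIM, was 7283 CPM in WT, 8402 CPM in siNC and 4614 to 8005 CPM after knockdown. Of 10 macrophage and microglia markers, 7 were under 1 CPM, with AIF1, P2RY12 and TYROBP at 0. CSF1R was at 1.18 to 3.69 CPM. The sum of the list, mostly CD68, was 168 CPM in WT, 98.1 CPM in siNC and 108 to 149.7 CPM after knockdown. The 8 endothelial markers summed to 12.1 to 25.2 CPM, with TEK at 0, CDH5 at 0.330 to 4.19 CPM, ESAM at 0.930 to 2.95 CPM and TIE1 at 8.19 to 15.1 CPM. The 10 pericyte and fibroblast markers each averaged at least 1 CPM, at very different levels. Their sum, mostly COL1A2, COL1A1, CSPG4 and THY1, was 6732 CPM in WT, 9664 CPM in siNC and 5688 to 8020 CPM after knockdown. ACTA2 was at only 2.60 to 14.7 CPM and DCN at 8.22 to 38.6 CPM over the 6 libraries. COL1A1 was at 1799.7 CPM in WT and 3436 CPM in siNC, beside 1764 ± 445 CPM after knockdown (SD, n = 4). COL1A2 ranged from 2147 to 3699 CPM over the 6 libraries. RGS5, a pericyte gene, was at 1.83 CPM in WT, 0.935 CPM in siNC and 2.11 to 2.89 CPM after knockdown (log2 fold change 1.42 against siNC, unadjusted p of 0.0299 in edgeR, and 0.45 against WT). The part of these markers in the protease levels was not tested. In bulk RNA, fewer cells making a transcript and less transcript per cell cannot be told apart.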

How the data were processed

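Raw counts of 6 libraries, listed by Ensembl ID, were taken as the authors deposited them. HISAT2, Trimmomatic, FastQC and bedtools, with build GRCh38, are named in the submitters' processing notes. The sources used here do not give versions, annotation or strand setting, so reads of overlapping genes cannot be assigned. Counts were tested in edgeR 4.0.16 (R 4.3.3; quasi-likelihood F test, TMM factors, genes kept by filterByExpr at 10 counts, Benjamini-Hochberg over all genes, threshold 0.05). One fit with 3 groups (3 residual degrees of freedom, all from siRIPK2) gave 3 comparisons, and a fit with 2 groups set siRIPK2 against both controls. Standard errors are the fold change divided by the root of F. TPM were computed from counts and GENCODE 29 lengths. DESeq2 1.42.0 and limma 3.58.1 were alternatives. The edgeR script was tested on simulated data. Members and lists were chosen with earlier results of these data known. All 9 members were described, and from each other list up to 3 genes averaging 1 CPM or more whose unadjusted p against siNC was lowest, plus genes set by name (SERPINE2, ANXA2, S100A10, PLGRKT, TIMP3, RECK, BSG, FOSL1, JUN, ETS1). Another gene set by name is not reported here. Genes named outside that rule, and the ratios, were picked with their values in view. The 4 nearest patterns were taken for PLAU, MMP1 and MMP16. Symbols were matched for 20148 of 20263 IDs. A floor of 3 counts is 0.0662 to 0.0894 CPM, counting error only.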

Additional observations from a re-analysis of the deposited data

Results flagged for a closer look

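In the 4 siRIPK2 libraries a lone value stood far from the others, past the 95% critical value of Dixon's criterion, for 2 of the 9 members. PLAU was at 438 CPM in siRIPK2_1, with the gap to the next library making up 0.921 of the whole range. MMP1 was at 13.9 CPM in siRIPK2_4, with a gap of 0.908 of the range, which put it beside the WT level. For normally distributed values chance flags about 1 in 20 groups of this size. The share of all genes past the same criterion was not computed. Whether 2 of 9 is unusual in these libraries is therefore not known.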

How the results depend on the processing

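Members called numbered 0 under all 44 alternative settings of the 4 comparisons. Of 396 members' fold changes recomputed, 378 kept their direction and 18 changed sign, all in values without a call. The scaling alternatives moved the median of all genes by at most 0.0168. Against siNC, MMP14 became -0.0077 with upper-quartile factors and -0.027 in limma-voom, and ranged from -0.15 to 0.12 when each siRIPK2 library was left out. PLAT ranged from -0.19 to 0.25 and MMP1 from -0.14 to 0.29 in the same way. Against WT, PLAU became -0.063 in limma-voom and ranged from -0.34 to 0.15 with a siRIPK2 library left out, PLAUR from -0.17 to 0.091 and PLAT from -0.18 to 0.24. For siNC against WT, PLAT became 0.00065 with upper-quartile factors and ranged from -0.0065 to 0.0051. Against both controls, PLAT ranged from -0.19 to 0.25 and MMP14 from -0.26 to 0.0083. Without the WT library MMP14 became 0.0020 and MMP1 0.17, and without the siNC library PLAU became 0.030 and the members' median -0.12. Leaving out a control makes this comparison the same fit as siRIPK2 against the remaining control alone. Those settings and values are therefore counted in both places and are not separate checks. The cause of the other sign changes was not tested. With genes averaging under 1 CPM left out (chosen after seeing the data), the ADAM and ADAMTS median against siNC turned from -0.08 to 0.14. No paired analysis was possible because each control is 1 library and shares no replicate number with the knockdown libraries in the labels. Each control is a single library, which limits every comparison.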

Other observations

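TIMP2 was added to the search for like patterns after its values were seen. The nearest gene was ABCB10, a mitochondrial transporter gene, at a root mean square difference of 0.23 where TIMP2 itself varied by 0.89. ABCB10 was at 28.3 CPM in WT and 33.8 CPM in siNC, at 28.3 and 30.2 CPM in siRIPK2_1 and siRIPK2_4, and at 10.9 and 9.32 CPM in siRIPK2_2 and siRIPK2_3. THAP12 (0.35), ITPRIPL2 (0.37) and HLCS (0.38) followed, each lowest in the same 2 libraries. THAP12 was at 34.5 and 17.9 CPM there, against 59.1 to 85.1 CPM in the other 4. The labels do not say whether those 2 libraries share an siRNA, a culture or an experiment date, and no test was made.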
